A study of Arabidopsis thaliana and Zea mays with 36 samples.

Results

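The beta carbonic anhydrases are a family of 6 Arabidopsis thaliana genes, chosen here by their locus identifiers: CA1 (AT3G01500), CA2 (AT5G14740), BCA3 (AT1G23730), BCA4 (AT1G70410), BCA5 (AT4G33580) and BCA6 (AT1G58180). They are 6 of the 27655 genes with linear RNA values, and their RNA was listed as 28 of 48359 annotated transcripts. They are also the host genes of 8 of the 1354 circular RNAs (circRNAs, RNA closed on itself by back-splicing) measured in the same study. All 6 genes reached a TPM of 1 (a transcript level scaled for length and for the library's total) in at least 2 libraries and were tested.

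The samples were rosette leaves of the Col-0 ecotype, with no transgene or mutation named in the labels, grown in soil with rationed water. The groups were a well-watered one (WW) and the drought levels DT2, DT3, DT4 and DT5, with 2 libraries in each group for linear RNA and 2 for circRNA, the circRNA libraries made after digestion with RNase R, which removes linear RNA. Drought treatment began 21 days after planting, and each RNA sample was pooled from the leaves of 4 plants, so that no value belongs to a single plant. The labels used here do not tie a soil moisture to each level, and the levels are given in the order of their numbers.

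Carbonic anhydrases interconvert carbon dioxide and bicarbonate, a reaction that runs slowly without an enzyme. In leaves the beta family is the most abundant kind. It is known for supplying the form of inorganic carbon that carboxylating enzymes take up, and for the response of guard cells, the pair of cells around each stomatal pore, to carbon dioxide. CA1 and BCA5 are chloroplast enzymes, CA2 and BCA3 are cytosolic, BCA4 is found at the plasma membrane and in the cytosol, and BCA6 is mitochondrial. Plants that lack both CA1 and BCA4 close their stomata poorly in response to carbon dioxide, and the tobacco relative of CA1 binds salicylic acid.

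The family split into members that fell and members that rose with drought. CA1, CA2 and BCA4, which had the highest levels in well-watered leaves, fell steeply between DT3 and DT4 and again between DT4 and DT5. BCA5 fell by smaller steps. BCA6 was higher at each level than at the one before, passed the test against WW from DT3 on, and had the highest mean of the family at DT5. BCA3, low throughout, rose by a small margin that does not hold on every scale. The summed TPM of the 6 genes was 4626 and 4759 in WW, 4087 and 3970.5 at DT2, 3238 and 2906 at DT3, 342 and 641 at DT4, and 163 and 158 at DT5. That is 3.42% of the WW mean at DT5 and 10.5% at DT4.

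CA1, the chloroplast enzyme, had 2700.2 and 2635 TPM in the WW libraries, 2231 and 2077 TPM at DT2, 1594 and 1428 TPM at DT3, 22.5 and 105 TPM at DT4, and 2.62 and 3.84 TPM at DT5. The libraries of each level lay below those of the level before it, without overlap. In WW leaves CA1 ranked 45th and 47th of all genes by TPM, and at DT5 it ranked 15278th and 14082nd. Its mean of 3.23 ± 0.863 TPM at DT5 (SD, n = 2) was 0.121% of the WW mean of 2667 ± 46.4 TPM. The log2 difference between DT5 and WW was -9.32 (SE 0.51, limma adjusted p = 1.75e-07), the second lowest of the 18938 genes tested, on the scale of log2(TPM + 1), which understates changes of low values.

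At DT4 the mean of CA1 was 63.8 ± 58.4 TPM (SD, n = 2), 2.39% of the WW mean, and the log2 difference from WW was -5.74 (SE 0.51, limma adjusted p = 1.24e-05). The 2 DT4 libraries stood far apart: the log2 difference was -4.65 without the first and -6.83 without the second. At DT4 CA1 differed from DT3 by -4.92 on the log2 scale (SE 0.51, adjusted p = 5.87e-05; -3.83 and -6.00 without the first or the second DT4 library), and at DT5 it differed from DT4 by -3.58 (SE 0.51, adjusted p = 3.59e-04; -4.66 and -2.49 without the same libraries). At DT3 it averaged 1511 ± 117 TPM (SD, n = 2), 56.6% of WW, a log2 difference of -0.82 (SE 0.51) that did not pass the test (limma adjusted p = 0.274). That SE is shared by all 5 groups. With the DT4 libraries left out, an alternative chosen after the values were seen, the same difference had an SE of 0.13 and an adjusted p of 0.00425.

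CA2, the abundant cytosolic enzyme, had 1602 and 1782 TPM in WW, 1528 and 1545 TPM at DT2, 1314 and 1175 TPM at DT3, 128 and 327 TPM at DT4, and 10.5 and 8.82 TPM at DT5. Its levels followed the order of CA1, again with no overlap between neighbouring levels. The DT5 mean of 9.64 ± 1.17 TPM (SD, n = 2) was 0.570% of the WW mean of 1692 ± 127 TPM, a log2 difference of -7.32 (SE 0.32, limma adjusted p = 5.01e-08). The DT4 mean of 228 ± 141 TPM was 13.5% of WW, a log2 difference of -3.04 (SE 0.32, adjusted p = 3.65e-05), which was -2.36 without the first DT4 library and -3.71 without the second. CA2 fell by 2.59 on the log2 scale between DT3 and DT4 (adjusted p = 1.59e-04; -1.92 and -3.26 without the same libraries) and decreased by 4.28 between DT4 and DT5 (adjusted p = 9.41e-06; -4.95 and -3.61 without them). The DT3 difference from WW, -0.44 (SE 0.32), did not pass (limma adjusted p = 0.35), and passed with the DT4 libraries left out (SE 0.10, adjusted p = 0.0199).

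BCA4, the plasma membrane enzyme, had 205 and 217 TPM in WW, 211 and 222 TPM at DT2, 209 and 186 TPM at DT3, 66.2 and 91.6 TPM at DT4, and 21.1 and 16.8 TPM at DT5. The WW libraries overlapped those of DT2 and of DT3, and the libraries of DT4 and DT5 lay apart below all of these. Its log2 difference from WW at DT3 was -0.09 with a 95% interval of -0.44 to 0.25. At DT4 it had fallen to 37.4% of WW, a log2 difference of -1.42 (SE 0.16, limma adjusted p = 4.36e-05). At DT5, with a mean of 18.9 ± 3.01 TPM against 211 ± 8.47 TPM in WW (SD, n = 2 each), it was at 8.97% of WW, a log2 difference of -3.42 (SE 0.16, adjusted p = 5.90e-08).

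BCA5, the second chloroplast enzyme, had 90.6 and 98.2 TPM in WW, 83.7 and 86.3 TPM at DT2, 75.2 and 73.8 TPM at DT3, 65.9 and 69.0 TPM at DT4, and 52.9 and 62.0 TPM at DT5. Each level lay below the one before it without overlap, by small steps. The DT5 mean of 57.5 ± 6.42 TPM (SD, n = 2) was 60.8% of the WW mean of 94.4 ± 5.39 TPM, a log2 difference of -0.71 (SE 0.10, limma adjusted p = 1.33e-04). It was lower than WW also at DT4 (-0.48, SE 0.10, adjusted p = 0.00244). The call at DT3 (-0.34, SE 0.10, limma adjusted p = 0.0493) was lost when any 1 library of WW or DT3 was left out (adjusted p from 0.107 to 0.252). The difference between DT5 and DT4 was -0.23 (limma adjusted p = 0.0895), with -0.34 without the second DT5 library and -0.12 without the first. That between DT4 and DT3 was -0.14 (adjusted p = 0.26). With the libraries rescaled to a common median ratio, they were -0.09 (limma adjusted p = 0.57) and -0.39 (adjusted p = 0.0228). Which of these steps passed thus depended on the scaling.

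BCA6, the mitochondrial enzyme, had 24.5 and 23.9 TPM in WW, 29.9 and 35.6 TPM at DT2, 40.1 and 38.0 TPM at DT3, 51.9 and 43.2 TPM at DT4, and 70.2 and 61.1 TPM at DT5. Every level lay above the one before it without overlap, the reverse of the order in BCA5. The DT5 mean of 65.6 ± 6.38 TPM was 271% of the WW mean of 24.2 ± 0.481 TPM (SD, n = 2 each), a log2 difference of 1.40 (SE 0.13, limma adjusted p = 6.14e-06). The rise over WW was 0.94 at DT4 (SE 0.13, adjusted p = 1.86e-04) and 0.67 at DT3 (SE 0.13, adjusted p = 0.0105). Relative to the median of all genes tested, BCA6 stood 0.53 higher at DT4 and 0.45 higher at DT3. With the libraries rescaled to a common median ratio, the rise over WW was 0.47 at DT4 (limma adjusted p = 0.00719) and 0.45 at DT3 (adjusted p = 0.0402). On that scale the difference between DT4 and DT3 was 0.02 (adjusted p = 0.895). The DT3 call was lost without the first WW library (adjusted p = 0.0529), the second WW library (0.0703) or the first DT3 library (0.0767). Between DT4 and DT5 it rose by 0.46 (SE 0.13, limma adjusted p = 0.016), a call lost without the second DT4 library (adjusted p = 0.109) or the first DT5 library (0.0875). The difference between DT4 and DT3, 0.27, did not pass (limma adjusted p = 0.103), and passed without the second DT4 library (0.40, adjusted p = 0.0443).

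BCA3, the second cytosolic enzyme and a close relative of BCA4, had 3.85 and 3.40 TPM in WW, 3.61 and 3.68 TPM at DT2, 5.93 and 4.68 TPM at DT3, 6.64 and 5.16 TPM at DT4, and 5.35 and 5.86 TPM at DT5. WW and DT2 overlapped, as did DT3, DT4 and DT5, and the second set lay above the first. Its log2 difference from WW was 0.57 at DT4 (SE 0.19, limma adjusted p = 0.0218) and 0.51 at DT5 (SE 0.19, adjusted p = 0.0302). The median of all genes tested lay 0.41 above WW at DT4 and 0.26 above it at DT5, so that BCA3 stood 0.16 and 0.26 above the median gene. With the libraries rescaled to a common median ratio both calls were lost (0.10, limma adjusted p = 0.679 at DT4, and 0.18, adjusted p = 0.391 at DT5). The DT4 call was also lost without the second WW library (adjusted p = 0.111) or the first DT4 library (0.139), and the DT5 call without the first WW library (0.0601), the second WW library (0.138) or the second DT5 library (0.094).

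**Figure D1:**
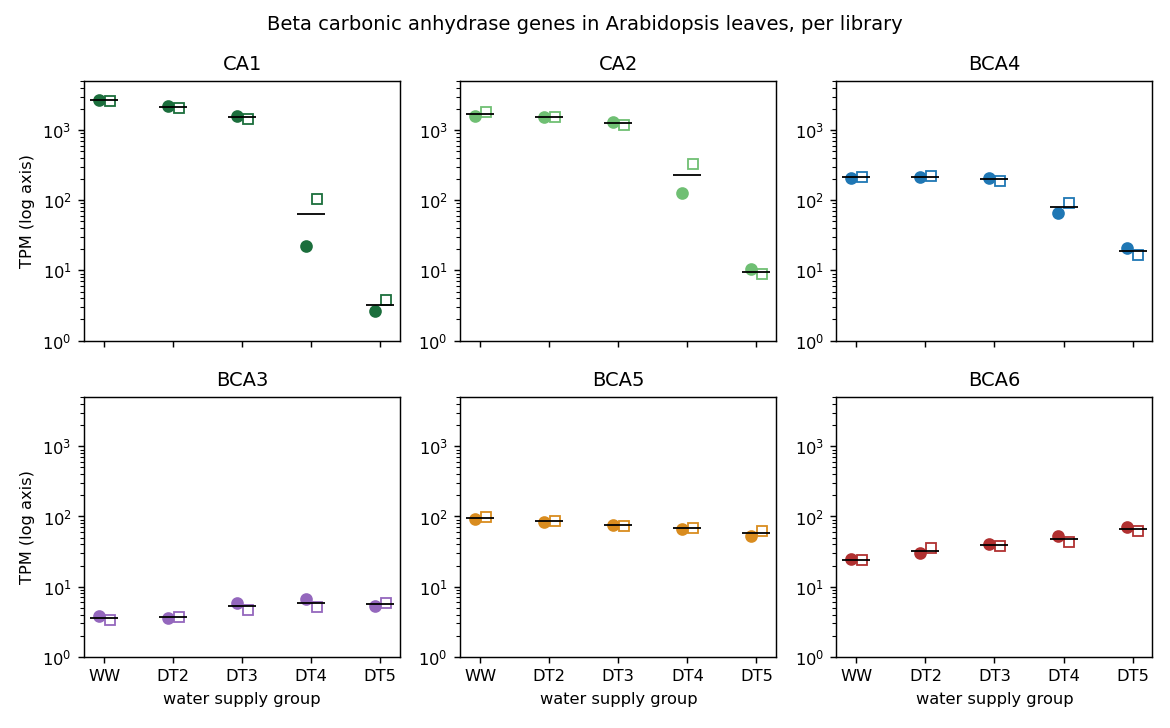
TPM of each of the 6 genes on a log axis, by water supply group; circles are the first and squares the second library of a group, and bars the means. CA1, CA2 and BCA4 drop at DT4 and DT5 (CA1 to 22.5 and 105 TPM, then to 2.62 and 3.84 TPM), BCA5 drifts down, and BCA6 climbs to 70.2 and 61.1 TPM at DT5, against 24.5 and 23.9 TPM in WW.

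Counted over the family, 4 members fell and 2 rose at DT5 against WW, and 71.5% of all genes tested were called in that comparison, 28.1% lower and 43.4% higher. The counts at DT4 against WW were the same, with 64.7% of all genes called, 16.4% lower and 48.3% higher. At DT3 against WW, 1 member was lower and 1 higher, and 16.8% of all genes were called, 2.22% lower and 14.5% higher. The DT3 count depends on the fit: it was 4 with the DT4 libraries left out, and 0 or 1 with a library of WW or DT3 left out. No member was called by limma at DT2 against WW, where 1.88% of all genes were called, 0.412% lower and 1.47% higher, and 1 member, BCA6 (log2 difference 0.42, adjusted p = 0.153), had an unadjusted p under 0.05. Likewise none was called at DT3 against DT2, where 0.0792% of all genes were called, 0.0211% lower and 0.0581% higher, and 1 member, BCA3, had an unadjusted p under 0.05. Between DT3 and DT4, 3 members fell and 0 rose, with 53.6% of all genes called, 20.0% lower and 33.6% higher. Between DT4 and DT5, 3 fell and 1 rose, with 46.3% called, 30.3% lower and 16.0% higher. At DT5 against DT2, 4 fell and 2 rose, with 70.2% called, 31.3% lower and 39.0% higher. In that comparison the rise of BCA3 (limma adjusted p = 0.0329) was lost after rescaling (0.166) and without any 1 library of DT2 or DT5 (0.0508 to 0.11). The F test over the 5 groups called all 6 members and 81.8% of all genes. With most genes called at the high levels, the sizes of the differences separate the members more than the calls do: relative to the median gene, the log2 difference at DT5 was -9.57 for CA1, -7.57 for CA2, -3.68 for BCA4, -0.97 for BCA5, 0.26 for BCA3 and 1.14 for BCA6.

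**Figure D2:**
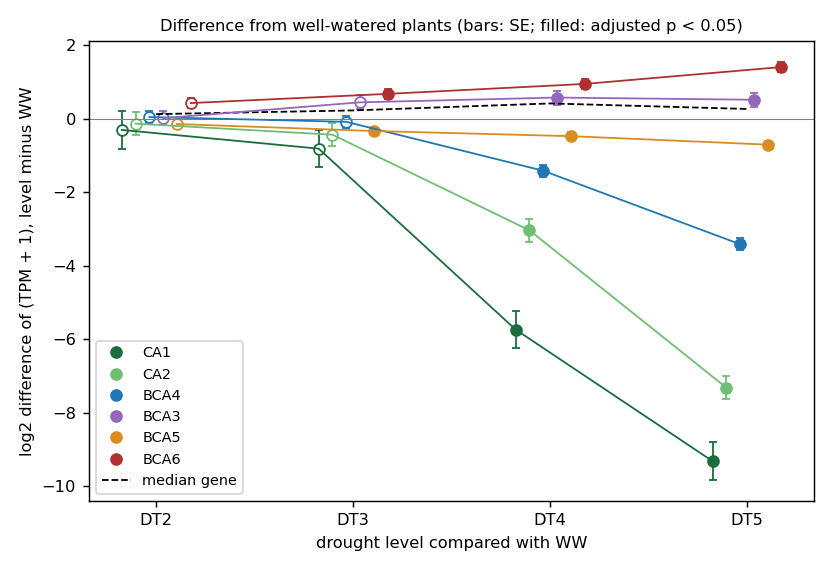
Log2 difference of (TPM + 1) between each drought level and WW for the 6 genes, with bars for the SE of the fit and filled points where the adjusted p was under 0.05; the dashed line is the median of all genes tested. CA1 reaches -9.32 at DT5 and BCA6 1.40, while the median gene stays between 0.12 and 0.41.

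In WW, DT2 and DT3 the order of levels was the same: CA1, CA2, BCA4, BCA5, BCA6 and BCA3, with the libraries of every neighbouring pair apart. At DT4 CA2 was highest, BCA4, BCA5, CA1 and BCA6 followed with means of 78.9, 67.4, 63.8 and 47.6 TPM and with libraries that overlapped between neighbours, and BCA3 came last. At DT5 BCA6 and BCA5 led with overlapping libraries, and BCA4, CA2, BCA3 and CA1 followed, each apart from the next. The most abundant gene of the family in WW was thus the least abundant at DT5.

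The make-up of the family pool shifted with these changes. CA1 held 58.4% and 55.4% of the summed family TPM in WW, 49.2% and 49.1% at DT3, 6.59% and 16.4% at DT4, and 1.61% and 2.42% at DT5. BCA6 held 0.530% and 0.501% in WW, 15.2% and 6.73% at DT4, and 43.2% and 38.6% at DT5. BCA5 held 1.96% and 2.06% in WW and 32.5% and 39.1% at DT5. So the mitochondrial and the second chloroplast enzyme, minor in watered leaves, together made up most of the little RNA that was left. CA2 kept between 34.6% and 51.0% in every library from WW to DT4 and held 6.44% and 5.57% at DT5. BCA4 averaged 4.49% in WW, 16.8% at DT4 and 11.8% at DT5.

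All 6 shares differed among the 5 groups by an exact permutation test of the F ratio over the 945 distinct splits of 10 libraries. The shares are parts of the same total, so the 6 tests are not independent. The fall of CA1 and CA2 alone would raise the shares of the other members, so a passing share does not show a change of that gene's own level. BCA5 averaged 2.01% of the family in WW and 35.8% at DT5, while its TPM at DT5 was 60.8% of WW. The adjusted p over the 6 members was 0.00159 for CA1, BCA4, BCA3 and BCA6, 0.00254 for BCA5 and 0.0476 for CA2; 0.00106 is the smallest unadjusted p that the splits allow. The CA2 share did not pass without the DT5 libraries (adjusted p = 0.429), nor when any 1 library of WW, DT2 or DT3 was left out (adjusted p from 0.0529 to 0.0677).

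**Figure D3:**
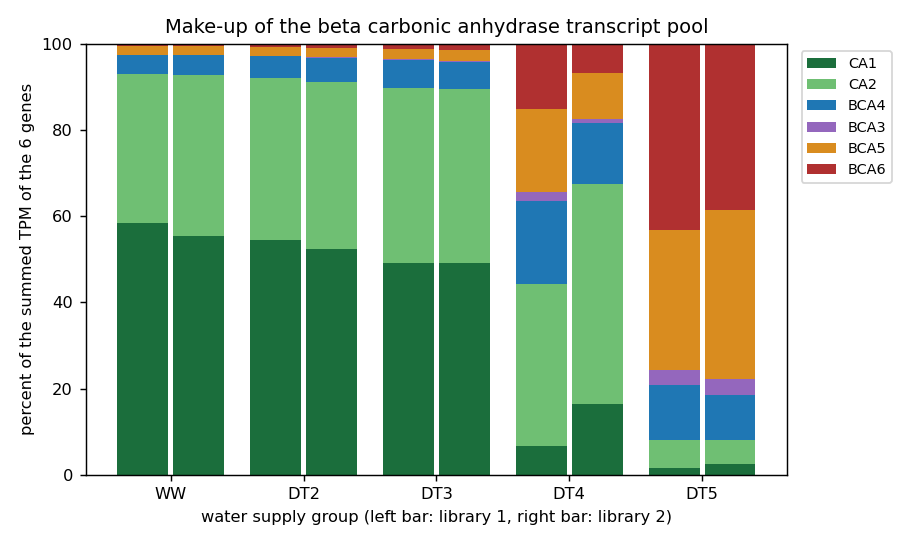
Percent of the summed TPM of the 6 genes held by each gene, with 1 bar per library. CA1 fills 58.4% and 55.4% of the WW bars and 1.61% and 2.42% of the DT5 bars, where BCA6 fills 43.2% and 38.6%.

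The difference between members within a library shows which of them moved apart, and does not change when a library is rescaled, apart from the pseudocount. All 15 pairs were compared, and all 15 differences changed among the groups (exact permutation test, adjusted p over the 15 pairs from 0.00198 to 0.0138). CA1 stood above CA2 up to DT3 and below it after: the log2 difference of CA2 minus CA1 averaged -0.66 in WW, -0.49 at DT2 and -0.28 at DT3. It was 2.46 and 1.63 at DT4 and 1.66 and 1.02 at DT5 (adjusted p = 0.00977). BCA6 minus BCA5, both modest genes in watered leaves, averaged -1.92 in WW, then -1.35 at DT2, -0.91 at DT3, -0.50 at DT4 and finally 0.19 at DT5 (adjusted p = 0.00198). BCA5 minus CA1, the 2 chloroplast enzymes, averaged -4.81 in WW, was 1.51 and -0.60 in the 2 DT4 libraries, which differ in sign, and averaged 3.80 at DT5 (adjusted p = 0.00198). Without the DT5 libraries 14 of the 15 pairs still passed, all but BCA6 minus BCA3 (adjusted p = 0.0857).

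Of the 28 annotated transcripts 21 passed the filter and were tested one by one. At DT5 against WW 12 were lower and 5 higher, and 51.2% of all 29354 transcripts tested were called, 19.9% lower and 31.3% higher. All 4 transcripts of CA1, 4 tested of the 9 listed for CA2 and all 3 of BCA4 fell, 5 of the 6 tested for BCA6 rose, 1 of the 2 tested for BCA5 fell, and 0 of the 2 for BCA3 passed. How reads were split among transcripts is the authors' estimate.

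CA1 had a pair of main transcripts. AT3G01500.2.1 stood at 0.30 and 0.14 TPM at DT5, against 1645 and 1624 TPM in WW, a log2 difference of -10.39 (SE 0.52, limma adjusted p = 1.41e-06). AT3G01500.3.1 stood at 1.14 and 2.39 TPM at DT5, against 1044 and 999 TPM in WW, a difference of -8.57 (SE 0.54, adjusted p = 4.32e-06). The first thus led in WW and the second at DT4. In the first DT5 library the minor transcript AT3G01500.1.1 stood at 1.18 TPM, beside 1.14 TPM for AT3G01500.3.1, and in the second AT3G01500.4.1 held 34.1% of the gene. AT3G01500.2.1 held 60.9% and 61.6% of the CA1 level in WW, 58.9% and 55.3% at DT2, 59.8% and 58.4% at DT3, 45.5% and 45.1% at DT4, and 11.5% and 3.65% at DT5. This share differed among the groups (exact permutation test, adjusted p over the 6 genes = 0.0127; 0.0508 without the second WW library), and at DT5 it is a share of 2.62 and 3.84 TPM.

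BCA4 likewise had a pair. AT1G70410.2.1 stood at 10.7 and 9.13 TPM at DT5, against 165 and 182 TPM in WW (log2 difference -4.00, SE 0.12, limma adjusted p = 3.36e-07). AT1G70410.3.1 stood at 9.72 and 7.67 TPM at DT5, against 38.0 and 33.5 TPM in WW (-1.93, SE 0.33, adjusted p = 0.00129). The first held 51.0% and 54.3% of the gene at DT5, against 80.6% and 84.0% in WW, 68.3% and 73.5% at DT3 and 87.6% and 78.6% at DT4, so that its share did not move in 1 direction. The exact permutation test over the groups gave an adjusted p of 0.0286, which was lost without either WW library (0.054 and 0.0571), either DT2 library (0.0667 and 0.0508) or the first DT3 library (0.102). Without DT5 neither the CA1 share (adjusted p = 0.114) nor the BCA4 share (0.257) passed, where the 105 splits of 8 libraries allow no unadjusted p below 0.00952.

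The leading transcripts of the other genes showed no passing change of share. AT5G14740.9.1 held 98.9% to 99.6% of CA2 in every library (adjusted p = 0.106, exact permutation test). Of BCA5, AT4G33580.3.1 stood at 28.9 and 28.0 TPM at DT5, against 52.1 and 64.5 TPM in WW (log2 difference -1.0, SE 0.12, limma adjusted p = 1.74e-04). AT4G33580.1.1 stood at 24.0 and 34.0 TPM at DT5, against 38.5 and 33.8 TPM in WW (-0.33, SE 0.16, adjusted p = 0.127); the change of the leading share did not pass (exact permutation test, adjusted p = 0.186). Of BCA6, AT1G58180.4.1 stood at 33.8 and 31.1 TPM at DT5, against 13.4 and 18.8 TPM in WW (0.99, SE 0.26, adjusted p = 0.012), and AT1G58180.7.1 at 17.8 and 16.2 TPM, against 6.73 and 2.50 TPM in WW (1.79, SE 0.40, adjusted p = 0.00562).

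**Figure D4:**
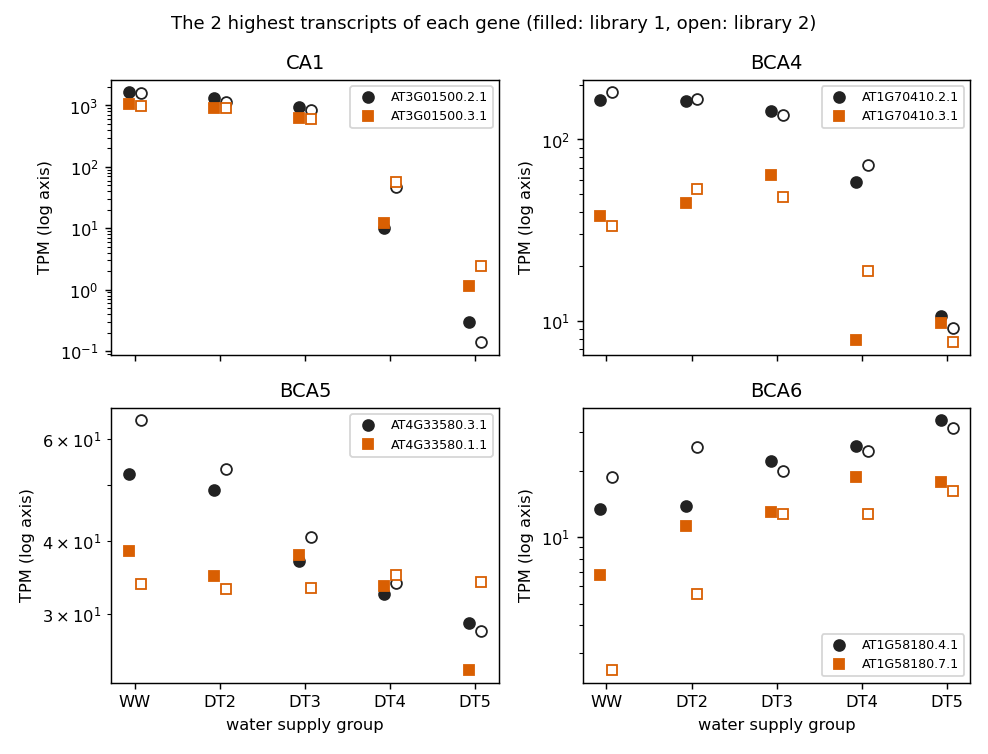
TPM on a log axis of the 2 highest transcripts of CA1, BCA4, BCA5 and BCA6 by group; filled symbols are the first and open symbols the second library. The CA1 transcripts cross at DT4, and those of BCA4 stand at 10.7 and 9.13 TPM and at 9.72 and 7.67 TPM at DT5.

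The genes with the most similar profiles are given as a description. They were ranked by Pearson's r of log2(TPM + 1) over the 10 libraries, which come as 5 groups of 2 and share their groups, so that r mostly reflects the group means. For CA1 they were AT5G02890 (r = 0.9993) and the plastid ribosomal protein genes RPL12-A (0.9989) and PRPL11 (0.9988), whose size of change differed: PRPL11 averaged 53.6 TPM at DT5 against 212 TPM in WW. For CA2 they were LHCB6, a light-harvesting protein gene (0.9991), CRB (0.9991) and the thylakoid ascorbate peroxidase gene TAPX (0.9990); LHCB6 averaged 117 TPM at DT5 and 4822 TPM in WW. BCA4 was nearest to FLA1, DEG2 and AT1G21500 (each 0.9987). The members with small changes had looser neighbours: GONST1 (0.9776), AT5G23490 (0.9772) and DPMS3 (0.9675) for BCA3, and AT4G34190 (listed as SEP1; 0.9802), AT1G20470 (0.9784) and AT5G52960 (0.9773) for BCA5. The nearest to BCA6 were AT5G22450 (0.9929), AT3G19990 (0.9928) and STOP1 (0.9898), which averaged 123 TPM at DT5 and 34.8 TPM in WW. Within the family r was 0.98 between CA1 and CA2, 1.0 between CA2 and BCA4, and -0.97 between BCA5 and BCA6.

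Most markers of leaf cell types fell at DT5, as CA1, CA2 and BCA4 did. All 9 mesophyll marker genes tested (Rubisco small subunits, Rubisco activase and light-harvesting proteins) fell at DT5 against WW, with a list median of -4.86. Of all genes tested 28.1% were lower and 43.4% higher, with a median of 0.26. RCA, the activase gene, fell by 4.44 (SE 0.15, limma adjusted p = 1.81e-08), LHCB3 fell by 4.86 (SE 0.17, 1.83e-08) and RBCS3B fell by 7.76 (SE 0.30, 2.50e-08). Their summed level was 5263 and 4416 TPM at DT5 and 28816 and 38241 TPM at DT4, against 90794 and 96988 TPM in WW, so that the DT4 library with less CA1 and CA2 also had less of these markers. Of 6 guard cell markers 5 fell and 1 rose at DT5 (list median -1.93), beside the same 28.1% and 43.4% of all genes. Their summed level was 23.0 and 17.9 TPM at DT5 and 28.7 and 41.2 TPM at DT4, against 166 and 150.5 TPM in WW. The smallest limma adjusted p of the guard cell list belonged to AT1G04800 (log2 difference -6.01, SE 0.29, adjusted p = 8.53e-08), AT1G22690 (-5.81, SE 0.50, 3.53e-06) and MYB60 (-2.52, SE 0.26, 1.14e-05). AT1G22690 was the only marker of that list at 0 in both DT5 libraries. KAT1 (-1.35, SE 0.22) and FMA (-0.68, SE 0.15) fell less. The riser, OZS1, stood at 7.57 and 5.96 TPM at DT5, against 2.65 and 1.66 TPM in WW (1.31, SE 0.25, adjusted p = 8.95e-04). In pooled leaves, fewer cells of a type and less RNA per cell cannot be told apart, and the part of either in the fall of CA1, CA2 and BCA4 was not tested.

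Markers of other organs were at or near 0, apart from PYK10. Of 6 root markers 3 were listed at 0 in all libraries and 1, PYK10, was tested; it fell by 3.42 (SE 0.29, limma adjusted p = 2.96e-06), and the list summed to 7.33 and 4.50 TPM at DT5, against 85.8 and 57.3 TPM in WW. The 5 flower organ markers summed to 0.910 and 0.670 TPM at DT5, against 3.48 and 1.22 TPM in WW. The tested one, AG, stood at 0.230 and 0 TPM at DT5, against 1.34 and 0.710 TPM in WW. It passed the filter only through the first WW library and the first DT3 library (1.44 TPM), so these levels are a description. Of 5 reference genes 2 rose and 2 fell at DT5 against WW, beside 43.4% of all genes tested higher and 28.1% lower. PP2AA3 changed by 0.41 (SE 0.10, adjusted p = 0.00402), UBQ10 by 0.33 (SE 0.13, adjusted p = 0.037), ACT2 by -0.58 (SE 0.09, adjusted p = 3.13e-04) and GAPC2 by -0.38 (SE 0.15, adjusted p = 0.0464). The BCA3 difference at DT5 (0.51) was smaller in size than that of ACT2 and larger than those of the other genes, and the BCA5 difference (-0.71) was larger in size than all 4.

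The other carbonic anhydrase families give a comparison of scale. Of 8 alpha carbonic anhydrase genes 3 passed the filter on low values, and 3 were listed at 0 in all libraries. ACA1 stood at 0.310 and 0.810 TPM at DT5, against 76.5 and 80.5 TPM in WW, a log2 difference of -5.69 (SE 0.37, limma adjusted p = 5.04e-07). ACA2 fell by 3.78 (SE 0.25, adjusted p = 5.69e-07). ACA7 had 1.03 and 1.85 TPM at DT5, against 0.21 and 0.20 TPM in WW; it passed the filter through its DT4 and DT5 libraries alone, so these levels are a description. The 5 gamma type genes, whose proteins are part of complex I of mitochondria, had smaller differences: 1 rose and 0 fell at DT5, with a median of 0.11. Of all genes tested, 43.4% were higher and 28.1% lower at DT5 against WW, with a median of 0.26. The riser was GAMMA CAL2, at 59.7 and 65.6 TPM at DT5, against 44.2 and 36.0 TPM in WW (0.64, SE 0.13, adjusted p = 0.00132).

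Enzymes that use bicarbonate, or carry it through their reaction, had smaller differences than CA1 and CA2. Of 12 tested of 13 listed, 2 rose and 6 fell at DT5 against WW, with a median of -0.23, where 43.4% of all genes tested were higher and 28.1% lower, with a median of 0.26. By the smallest adjusted p, the carbamoyl phosphate synthetase subunit gene CARA changed by -1.23 (SE 0.12, limma adjusted p = 9.00e-06), and the biotin carrier genes of plastid acetyl-CoA carboxylase BCCP2 by -2.13 (SE 0.24, 2.13e-05) and CAC1 by -0.73 (SE 0.09, 4.81e-05). The difference of BCCP2 was the lowest of the 12.

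Of 13 genes of carbon dioxide signalling in guard cells 5 were higher and 7 lower at DT5 against WW, with a median of -0.50, beside 43.4% of all genes tested higher and 28.1% lower, with a median of 0.26. The aquaporin gene PIP2A, whose protein binds BCA4 and passes carbon dioxide in frog oocytes, stood at 144 and 125 TPM at DT5, against 1878 and 1743 TPM in WW (log2 difference -3.74, SE 0.15, limma adjusted p = 2.63e-08). This fall lay close in size to that of BCA4 (-3.42), which was only the 484th lowest difference of all genes tested. A link between the falls was not tested. OST1, the kinase that opens guard cell anion channels, stood at 50.0 and 52.6 TPM at DT5, against 9.98 and 8.61 TPM in WW (2.35, SE 0.14, adjusted p = 3.46e-07). GHR1, a receptor kinase that acts on the same channels, stood at 0.05 and 0.11 TPM at DT5, against 7.54 and 6.41 TPM in WW (-2.88, SE 0.25, adjusted p = 4.00e-06). The channel gene OZS1 is also one of the guard cell markers, the one that rose.

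The 8 circRNAs came from 4 of the 6 genes: 1 from CA1, 3 from CA2, 3 from BCA4 and 1 from BCA5, and none was listed for BCA3 or BCA6. Of 843 host genes 47 had 3 or more. All 8 were deposited as exonic. Their values are a signal scaled per library and are given here in steps. A step was set to the smallest nonzero value of a library divided by 2, so that the smallest listed value is 2 steps by construction, and every value lay within 0.02 of a whole number of steps. It is taken as 1 back-splice read, which no source states. With 6549 to 10695 steps in a library in all, the values below rest on few reads, and a 0 can mean a circRNA below the listing limit. On this scale CA1 gave 3 and 2 steps at DT2 and was listed nowhere else, for AT3G01500_C1 (chromosome 3, 195982 to 196505, minus strand, TAIR10).

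CA2 gave 3 circRNAs on the plus strand of chromosome 5. AT5G14740_C3 (4761738 to 4762066) had 6 and 7 steps in WW and was at 0 in every drought library. AT5G14740_C1 (4761163 to 4762066) had 5 and 2 steps and AT5G14740_C2 (4760724 to 4761823) 2 and 3 steps at DT2, and both were at 0 in the other groups. The WW circRNA and the first of the DT2 ones share their end. AT4G33580_C1, from BCA5 (chromosome 4, 16140555 to 16141085, plus strand), also appeared at DT2 alone, with 5 and 3 steps.

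BCA4 was the member with circRNAs in every group, though no single circRNA was in all. The 3 lie on the minus strand of chromosome 1 and share the coordinate 26536517 as their end, with starts at 26535285, 26535647 and 26536042. AT1G70410_C3, the longest, had 3 and 4 steps in WW, 2 and 3 at DT2, 4 and 7 at DT3, 4 and 2 at DT4 and none at DT5. AT1G70410_C1 had 5 and 5 steps at DT2, 3 and 9 at DT3 and 7 and 5 at DT4, and AT1G70410_C2, the shortest, 3 and 7 at DT2, 7 and 10 at DT4 and 3 and 8 at DT5. Whether circRNAs that share this end differ in their pattern over groups was not tested.

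The summed BCA4 circRNA signal, in the deposited unit, was 42.9 and 61.4 in WW, 138 and 222 at DT2, 94.6 and 239 at DT3, 212 and 225 at DT4 and 49.0 and 109.5 at DT5. Beside it, the linear BCA4 level was 66.2 and 91.6 TPM at DT4, against 205 and 217 TPM in WW. At DT4 the summed circRNA signal of the gene was thus above that in WW in both libraries and its linear level below. AT1G70410_C1 and AT1G70410_C2 entered this sum at DT4 and were at 0 in WW. AT1G70410_C3, the only BCA4 circRNA listed in both groups, was at 47.1 and 26.5 at DT4, against 42.9 and 61.4 in WW. No test was made of the sum, since a 0 in it is not a measured level.

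Where a circRNA was listed in both groups, the change could be tested, which gave 9 comparisons, all of BCA4 circRNAs. The limma test called 0 of 9, and 0 had an unadjusted p under 0.05, with adjusted p from 0.604 to 0.996 and log2 differences from -1.09 to 1.11 (SE 0.55 to 0.63). The 95% intervals reached from -2.28 to 2.31 at their widest, so that a change of the size of the BCA4 difference at DT4 (-1.42) could be missed at this depth. Among all circRNAs so tested, 0.00% were called at DT2, DT3 and DT4 against WW, at DT3 against DT2 and at DT4 against DT3, 1.27% at DT5 against WW, 1.06% at DT5 against DT4 and 0.388% at DT5 against DT2.

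By group, 2 of the 8 were listed in WW and 7 at DT2, while DT3 had 2, DT4 had 3 and DT5 had 1. Of all 1354 circRNAs, 38.9% were listed in WW and 37.8% at DT2, and the share was 36.3% at DT3, 43.6% at DT4 and 44.2% at DT5. So the family's circRNAs were listed most at DT2, where the listing of circRNAs as a whole was not raised, and least at DT5. In WW, where CA1 and CA2 had their highest linear levels, the 2 listed were AT5G14740_C3 of CA2 and AT1G70410_C3 of BCA4, and none was from CA1. At DT3, with linear means of 1511 and 1245 TPM, neither CA1 nor CA2 had a listed circRNA. Listed in 1 group alone were 5 of the 8, against 52.9% of all circRNAs, and 0 of the 8 in all 5 groups, against 7.83%. With 8 circRNAs these shares are a description.

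**Figure D5:**
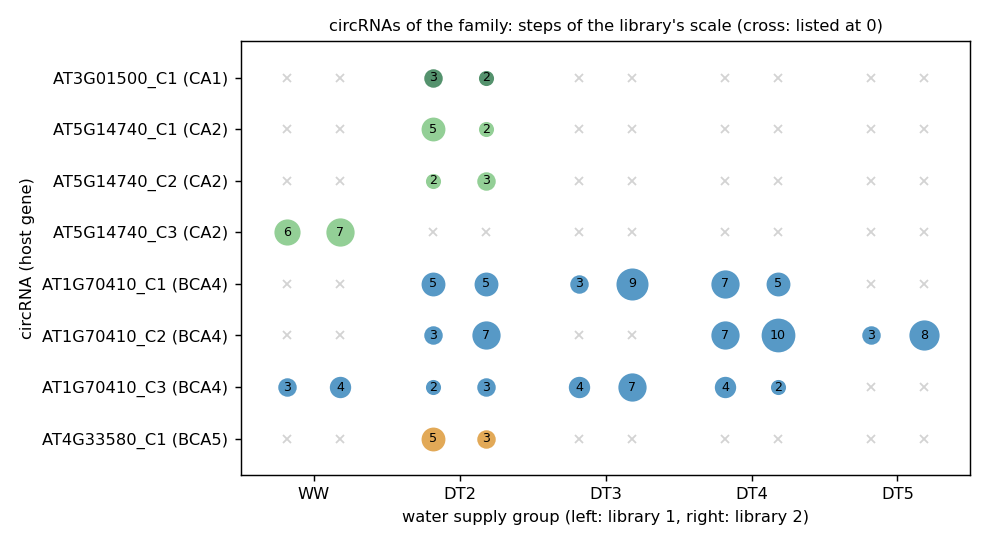
Steps of each of the 8 circRNAs in the 10 libraries (numbers in the circles; circle area grows with the steps; crosses are values of 0). At DT2 7 of the 8 are listed, and the 3 BCA4 circRNAs are the ones listed in 3 or more groups.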

How the data were processed

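The authors deposited linear RNA in TPM by transcript, as the headers state; all libraries have 1 common total, so sequencing depth is unknown. For circRNAs the authors deposited a scaled signal, and how they scaled it is unstated. The submitters' processing notes name BWA, RSEM, edgeR and TAIR10, with no version or role. The linear header has 13 cells over 12 data fields; the cell stating the unit was read as a caption, under which all 10 libraries correlated best with the other of their group (r 0.989 to 0.994). Columns carry numbers and titles letters, which were matched by group only.

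Transcripts were summed to genes. The 18938 genes reaching a TPM of 1 in 2 libraries entered as log2(TPM + 1), with all 10 libraries in one limma fit (3.58.1, mean-variance trend, two-sided, R 4.3.3) and Benjamini-Hochberg adjustment over all genes; an adjusted p under 0.05 is a call. Shares and differences between members were tested by exact permutation, since 2 libraries against 2 cannot go below p = 0.333. For circRNAs a listed 0 was taken as missing (zeros came in both libraries of a group 4048 times and in 1 library once), and limma's moderation was applied to log2 values; values lay within 0.02 of whole steps. The fits were run on simulated data, with outcomes not reported here. For circRNAs the simulation started from those listed in all 10 libraries. No circRNA of the family was among these, so the simulation does not cover them. Close relatives (CA1 and CA2, BCA3 and BCA4) could share reads; how these were divided was not tested. Symbols come from RefSeq's gene table. Other software was Python 3.11.15 with pandas 2.3.3 and matplotlib 3.10.9, and the R package data.table (version 1.17.8).

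The members, gene lists and tests were chosen with earlier results of these data known. Named genes are the 6 members and the 3 genes most correlated with each. Of each list, the 3 with the smallest adjusted p at DT5 against WW among those called without overlap were also named. GAPC2, OZS1, KAT1 and FMA were named after their values were seen. Alternatives changed the pseudocount to 0.1, the filter, the scaling, the trend, the libraries in the fit and the replicate block, and left out each library.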

Additional observations from a re-analysis of the deposited data

How the results depend on the processing

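Of the counts reported, the number of members called at DT3 against WW and the number of leading transcripts whose share changed moved by over 1.5 times. At DT3, 2 members were called; the count was 1 with a pseudocount of 0.1, 1 with no filter, 1 with no trend and 1 with the replicate block, which changed no other count of members and gave 0 called circRNAs (equal numbers did not pair the samples, with correlations of deviations from -0.160 to 0.067); the count ran from 0 to 1 with a library left out. It was 4 without the DT4 libraries, an alternative chosen after seeing the data. Shares of leading transcripts passed for 2 genes, for 0 to 2 with a library left out and for 0 without DT5, also chosen after seeing the data. In other comparisons with calls the counts ran from 5 to 6 (DT4 or DT5 against WW, DT5 against DT2, F test), 3 to 4 (DT4 against DT3) and 3 to 5 (DT5 against DT4). A fit on the 4 libraries compared also lost BCA3 at DT4 (adjusted p = 0.0515) and DT5 (0.0581) against WW and at DT5 against DT2 (0.0562), and BCA6 between DT4 and DT5 (0.0679), and called CA1 at DT3 (0.0254). Signs turned only for differences that were not called. BCA4 at DT2 against WW was -0.09 after rescaling and -0.00 without the first WW library. BCA3 at DT2 against WW was -0.12 after rescaling, and ran from -0.06 (without the second WW library) to 0.08 (without the first), with -0.00 without the second DT2 library. BCA3 at DT4 against DT3 was -0.12 after rescaling, and ran from -0.03 (without the first DT4 library) to 0.28 (without the second), with -0.01 without the second DT3 library. BCA3 at DT5 against DT4 was 0.08 after rescaling, and ran from -0.21 to 0.10 without the second or the first DT4 library. The cause was not tested. Fits with an arm of 1 library assume that it varies like the other groups.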
